A study of Mus musculus with 5 samples.

Results

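Neutrophils were followed in single-cell RNA-seq libraries of whole mouse lung through 251 of the 15454 barcodes with at least 200 detected genes. A barcode stands for 1 captured droplet, and barcodes were chosen by the measured counts of a pair of genes: a barcode was counted as a neutrophil where S100a8 and S100a9, which encode the subunits of calprotectin, together held at least 10 counts and at least 1% of its counts, with hemoglobin features under 50%. All mice were C57BL/6J. The air group was raised in room air. Pups of the neonatal hyperoxia group were kept in more than 95% oxygen for 3 days after birth and then recovered in room air. During the exposure the dams were switched daily between exposed and room air litters. Lungs were taken at postnatal day (pnd) 7 or 60, with 1 library for each exposure and age, and the number of mice behind each of these 4 unsorted libraries is not given in the sources used here. A further library held pnd7 cells from 3 pooled hyperoxia lungs, sorted for C12FDG, a fluorescent substrate of the senescence-associated β-galactosidase. With 1 library per condition no difference was tested. Intervals are exact 95% intervals for counting error alone, a library and its condition cannot be told apart, and comparisons that use the same library are not independent of each other.

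Neutrophils are short-lived granulocytes made in the bone marrow. As they mature they fill their granules in order: primary granules with serine proteases first, then specific granules with antimicrobial proteins such as lactotransferrin (Ltf), cathelicidin (Camp) and neutrophilic granule protein (Ngp), then tertiary granules with matrix metalloproteinases. Maturing cells switch the granule genes off and gain the receptors for granulocyte colony stimulating factor (Csf3r) and for CXC chemokines (Cxcr2). In the lung a large pool of neutrophils is held in the capillaries, and neutrophils are a source of oxidants, proteases and Il1b in the injured newborn lung.

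The barcodes carried the genes of neutrophils beyond the calprotectin pair that chose them. Csf3r or Cxcr2 was counted in 15 of 15 neutrophils of air pnd7, 13 of 13 of hyperoxia pnd7, 96 of 97 of air pnd60 and 125 of 126 of hyperoxia pnd60. In B cell barcodes, which should lack Csf3r, it was counted in 0.735% at air pnd7, 0% at hyperoxia pnd7, 0.231% at air pnd60 and 0.271% at hyperoxia pnd60. Cxcr2 was counted in 0.735%, 2.7%, 0.0769% and 0% of them in the same order. The median depths of the B cell barcodes were 3896, 4140, 1618 and 1673 counts. Ranked by their ratio to all other barcodes, the 20 leading genes included Retnlg, encoding a resistin-like secreted protein, the metalloproteinases Mmp9 and Mmp8, Il1b, Csf3r, Cxcr2, the antiprotease Slpi, the C-type lectin Clec4d and the peptidoglycan-binding Pglyrp1, and also Camp, Ngp, Ltf and the stefins Stfa1, Stfa2l1, Cstdc4 and Cstdc5. These ranks come from the cells that were chosen and are given as a description.

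Calprotectin itself made up a median of 17.6% of a neutrophil's counts in air pnd7 (2.40 to 29.4%), 16.5% in hyperoxia pnd7 (7.71 to 35.6%), 9.01% in air pnd60 (1.07 to 26.2%) and 11.6% in hyperoxia pnd60 (1.53 to 36.8%). The pnd7 neutrophils lay well inside the limit and a few pnd60 neutrophils lay near it, with 7 under 2% in each pnd60 library. Just outside it, with at least 10 calprotectin counts but under 1%, were 7, 3, 3 and 2 barcodes in the same order, and the highest of them reached 0.807%, 0.880%, 0.910% and 0.943%. Among the barcodes outside the rule, S100a8 and S100a9 summed to 32.8, 19.6, 17.2 and 9 CPM, counts for every 1000000 counts of the barcodes summed. Between 0 and 7 barcode sequences were shared by any pair of libraries, and no neutrophil barcode was among them.

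Neutrophil barcodes were shallower at pnd60 than at pnd7, and so, by counts, were the other barcodes. Their median was 3109 counts and 1066 genes in air pnd7, 3007 counts and 1071 genes in hyperoxia pnd7, 1180 counts and 648 genes in air pnd60, and 1284 counts and 685.5 genes in hyperoxia pnd60. Other barcodes held medians of 2776, 5232, 2014 and 2087 counts and of 1195, 1740, 1199 and 1242 genes. A minimum of 700 genes, as used in the study's own cell filter, kept all 15 and 13 neutrophils at pnd7, 31 of 97 (32.0%) in air pnd60 and 58 of 126 (46.0%) in hyperoxia pnd60, while it kept 72.4%, 70.8%, 90.8% and 87.1% of the other barcodes. In all, 134 of the 223 pnd60 neutrophils lay under it.

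Markers of other cell types were present, some were widespread at pnd60, and not all were at low levels. Alveolar macrophage markers were at 1805 and 837 CPM at pnd7, against 528 and 499 CPM in the other barcodes. At pnd60 they were at 313 and 50.4 against 1675 and 1869 CPM. Classical monocyte markers were at 448, 473, 380 and 275 CPM against 307, 288, 507 and 517 CPM. Nonclassical monocyte markers were at 448, 284, 930 and 1070 CPM against 260, 267, 761 and 809 CPM. The 8 mesenchyme markers held 4 and 3 counts at pnd7, 137 counts in 62 of 97 neutrophils of air pnd60 and 123 counts in 75 of 126 of hyperoxia pnd60, led by Inmt. The 6 nonclassical monocyte markers held 33, 18, 125 and 191 counts, in 56 and 71 barcodes at pnd60, where 95 and 150 counts were Nr4a1, which is also an immediate early gene, with Cd300e at 0 in each library. Type II cell markers held 18, 16, 61 and 77 counts, airway epithelium markers 1, 2, 73 and 166, and endothelium markers 3, 6, 40 and 76. Of the 76 endothelium counts, 22 were in 1 barcode and 12 in another. NK cell markers were at 0 in all 4 libraries. B cell markers (6 genes, with Ighm and Igkc at 0 in each library) summed to 0 counts at pnd7, 39 counts in 4 barcodes of air pnd60 and 69 counts in 9 barcodes of hyperoxia pnd60, with Cd79a the most abundant of those counted. Ighm and Igkc were at 0 in every barcode of the 4 libraries, and a copy feature of Ighm held 12776 counts, so these zeros are not read as absence. Of the 6 classical monocyte markers, F13a1 and Vcan were at 0 in each library, and the sum was 33, 30, 51 and 49 counts, led by Ly6c2 at pnd7 and Csf1r at pnd60. The 9 alveolar macrophage markers summed to 133, 53, 42 and 9 counts. Chil3 held 52 of the 53 counts in hyperoxia pnd7 and 40 of the 42 in air pnd60. Of these Chil3 counts 52 and 39 were in the barcodes called granule-rich below. Of the 133 in air pnd7, 110 came from 1 barcode, which was also the deepest of that library, with 22693 counts, 30.8% of all neutrophil counts of the library, 226 counts of cell cycle genes, 475 stefin counts and 732 calprotectin counts. At hyperoxia pnd7 the deepest neutrophil barcode held 16346 counts, 25.8% of the total, and 1 barcode held 10 counts of dendritic cell markers. The part of these barcodes in the results was not tested, and for pnd7 values without the deepest barcode of each library are given beside many of the results.

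The first question was whether neutrophils were more frequent after neonatal hyperoxia, at either age. They made up 0.467% of barcodes in air pnd7 (15 of 3212, Clopper-Pearson interval 0.262 to 0.769%) and 0.722% in hyperoxia pnd7 (13 of 1800, 0.385 to 1.23%). At pnd60 they made up 1.98% in air (97 of 4910, 1.60 to 2.40%) and 2.28% after hyperoxia (126 of 5532, 1.90 to 2.71%). The share after hyperoxia was 1.55-fold that in air at pnd7 (0.677 to 3.48) and 1.15-fold at pnd60 (0.878 to 1.52), so that neither difference was larger than counting error. Between ages the shares were further apart: 4.23-fold higher at pnd60 in air (2.44 to 7.85) and 3.15-fold higher after hyperoxia (1.78 to 6.09). A share also depends on how many cells of other types were recovered, which cannot be told apart from the number of neutrophils. The age difference depended on shallow barcodes: with 700 to 8000 genes and under 5% mitochondrial counts required of all barcodes, the shares were 0.650% in air pnd7, 1.04% in hyperoxia pnd7, 0.705% in air pnd60 and 1.22% in hyperoxia pnd60.

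**Figure D1:**
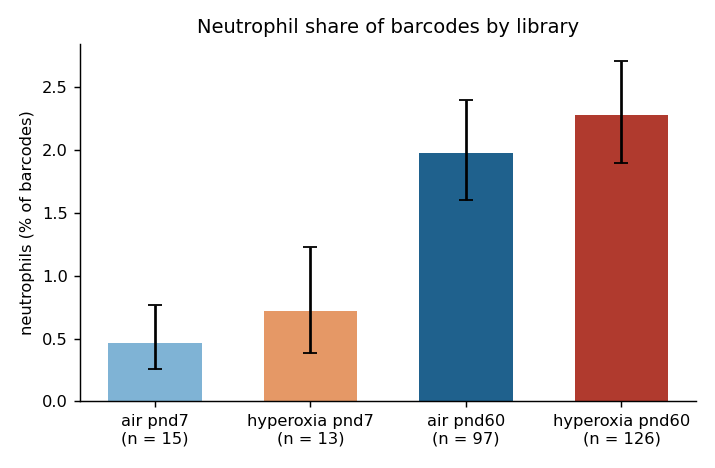
Share of barcodes that were neutrophils in each unsorted library, in percent, with n neutrophil barcodes; bars are shares and lines are 95% Clopper-Pearson intervals for counting error. The air and hyperoxia intervals overlap at each age, and both pnd60 shares (1.98% and 2.28%) lie above both pnd7 shares (0.467% and 0.722%).

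In the C12FDG-sorted library none of the 559 barcodes with at least 200 genes met the rule, which allows a share of up to 0.537% by a limit of 3 counts. In that library 5 barcodes held at least 10 calprotectin counts, the highest 16, and the highest share among them was 0.0831% of a barcode's counts.

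The neutrophils were of more than 1 kind. Camp, Ngp and Ltf, the specific granule genes, were not spread over the neutrophils but sat in a few of them. Barcodes with at least 3 counts of the 3 genes, a limit chosen after the values were seen, are called granule-rich here. They were 5 of 15 neutrophils in air pnd7 (33.3%, interval 11.8 to 61.6%), 3 of 13 in hyperoxia pnd7 (23.1%, 5.04 to 53.8%), 3 of 97 in air pnd60 (3.09%, 0.642 to 8.77%) and 1 of 126 in hyperoxia pnd60 (0.794%, 0.0201 to 4.34%). They held 1070 of 1070, 2105 of 2106, 647 of 648 and 17 of 19 of the counts of these genes. The granule-rich share was lower at pnd60 than at pnd7 in both exposures, while the air and hyperoxia intervals overlapped at each age. At least 1 count of any of the 3 genes was found in 5, 4, 4 and 3 neutrophils.

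The granule-rich barcodes differed widely among themselves. In air pnd7 they made up 6.86%, 6.44%, 4.38%, 0.369% and 0.0984% of a barcode's counts, and in hyperoxia pnd7 10.3%, 6.00% and 2.96%. In air pnd60 the shares were 9.61%, 5.13% and 0.915%, and in the single barcode of hyperoxia pnd60 0.469%. That single barcode also held 12 counts of endothelium markers. Granule-rich barcodes were deeper, with a median of 5191 counts against 2388 for the other neutrophils in air pnd7, 10890 against 2638 in hyperoxia pnd7, 3721 against 1162 in air pnd60, and 3626 against 1264 in hyperoxia pnd60.

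Il1b, the proinflammatory cytokine, showed the opposite arrangement. It was at 0 in 3 of 5, 3 of 3, 3 of 3 and 1 of 1 granule-rich barcodes, and it was counted in 10 of 10, 10 of 10, 92 of 94 and 123 of 125 of the other neutrophils. In B cell barcodes Il1b was counted in 0%, 0%, 0.538% and 0.746%. The 17 Il1b counts among granule-rich barcodes of air pnd7 came almost wholly from 1 barcode (16 counts), the one with the lowest granule gene share (0.0984%). No barcode with more than 1% of Camp, Ngp and Ltf held an Il1b count, as the plot of granule genes against Il1b shows.

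**Figure D2:**
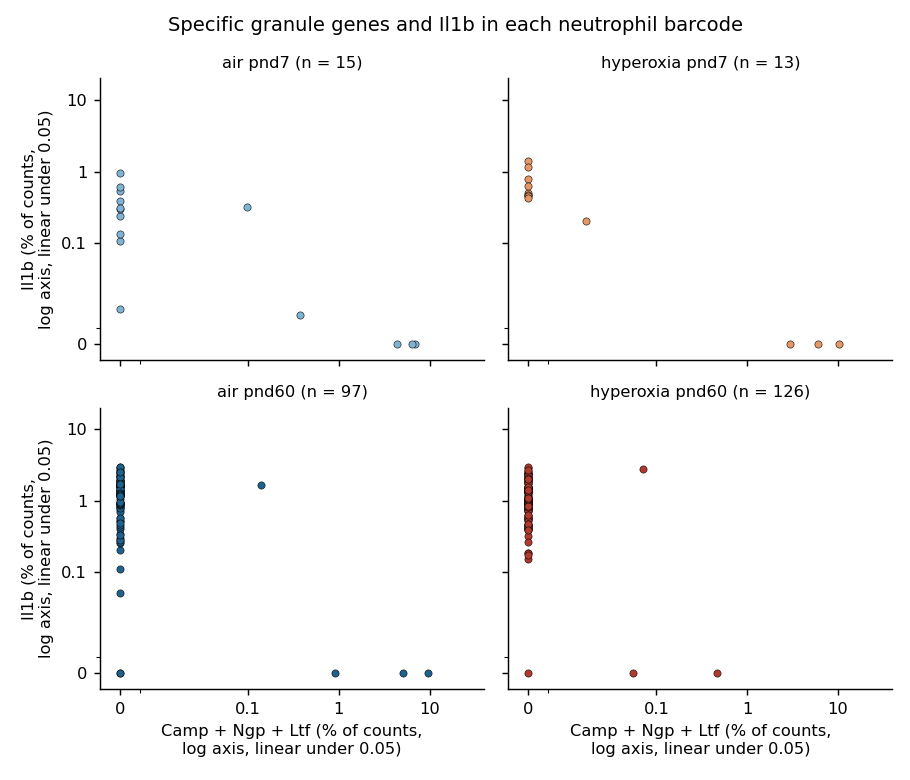
Each point is 1 neutrophil barcode; the x axis gives Camp, Ngp and Ltf together and the y axis Il1b, both in percent of the barcode's counts on log axes that are linear under 0.05. Barcodes with more than 1% of granule genes lie at 0 for Il1b, while the air pnd7 barcode with 0.0984% of granule genes lies among the other neutrophils.

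Other genes also differed between both kinds of neutrophil, though not all of them in every library. With the pnd7 libraries joined, Lcn2 (lipocalin 2, an iron-scavenging specific granule protein) was at 8106 CPM in granule-rich barcodes and 94.3 CPM in the others. Cybb, the catalytic subunit of the phagocyte NADPH oxidase, was at 2134 against 539 CPM, Anxa1 (annexin A1) at 3663 against 795 CPM, and Mmp8 (neutrophil collagenase) at 1672 against 350 CPM. At pnd60 the same 4 genes were at 12870 against 675, 3656 against 114, 3510 against 461 and 4680 against 361 CPM. Within libraries Lcn2 and Cybb were higher in granule-rich barcodes in all 4, while the interval of the log2 ratio included 0 for Mmp8 in hyperoxia pnd7 (898 against 577 CPM, 0.64, -0.27 to 1.60) and for Anxa1 in hyperoxia pnd60 (1.57, -0.09 to 2.86). Cebpe, a transcription factor of granulocyte maturation, was at 699 against 21.5 CPM in air pnd7 but at 449 against 397 CPM in hyperoxia pnd7, a log2 ratio of 0.18 (-1.02 to 1.43). On the other side, the chemokine gene Ccl6 was at 143 against 4985 CPM at pnd7 and 293 against 3704 CPM at pnd60, and of the 370 pnd7 counts in the other neutrophils 212 came from the deepest air pnd7 barcode. Csf3r was at 223 against 1334 and 512 against 4119 CPM, and Srgn, the proteoglycan core protein serglycin, at 430 against 2438 and 658 against 3724 CPM. Cxcr2 was at 626 against 645 CPM in air pnd7 (log2 ratio -0.04, -0.995 to 0.86), or against 1134 CPM without the deepest barcode, and it was at 140 against 865 CPM in hyperoxia pnd7, 199 against 1448 CPM in air pnd60 and 552 against 1459 CPM in hyperoxia pnd60, where the interval again included 0. These contrasts rest on 8 granule-rich barcodes at pnd7 and 4 at pnd60.

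Primary granule transcripts were few. The list of 8 genes summed to 31, 12, 20 and 19 counts, from Serpinb1a, an inhibitor of neutrophil serine proteases (25, 12, 7 and 8 counts), and Gstm1, a glutathione transferase (6, 0, 11 and 11 counts), with 2 counts of Nkg7 in air pnd60. Elane, Prtn3, Ctsg and Ms4a3 were at 0 in all 251 neutrophils. Mpo was at 0 in every barcode of the 4 libraries and its name also stands on a copy feature, so its 0 is not read as absence.

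Camp, Ngp and Ltf lie near each other on chromosome 9. Their promoters are shown because the 3 genes were counted together in the same few neutrophils. Each sequence is the 250 bases before the RefSeq start of the gene in GRCm38.p6, read 5′ to 3′ on the strand of the gene. Capitals mark matches to TTNNGNAAT, a form of the C/EBP motif, or to GAGGAA, a form of the PU.1 motif, searched on both strands; C/EBP factors and PU.1 are known regulators of granulocyte genes.
Camp: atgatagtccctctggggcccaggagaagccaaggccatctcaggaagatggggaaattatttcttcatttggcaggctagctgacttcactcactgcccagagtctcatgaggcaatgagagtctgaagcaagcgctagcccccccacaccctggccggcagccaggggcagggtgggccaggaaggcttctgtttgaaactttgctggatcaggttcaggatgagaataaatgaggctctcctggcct
Ngp: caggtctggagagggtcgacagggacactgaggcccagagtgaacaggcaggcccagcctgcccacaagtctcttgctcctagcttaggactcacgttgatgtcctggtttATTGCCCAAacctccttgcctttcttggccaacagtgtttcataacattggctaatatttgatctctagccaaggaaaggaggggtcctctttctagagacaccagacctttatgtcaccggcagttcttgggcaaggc
Ltf: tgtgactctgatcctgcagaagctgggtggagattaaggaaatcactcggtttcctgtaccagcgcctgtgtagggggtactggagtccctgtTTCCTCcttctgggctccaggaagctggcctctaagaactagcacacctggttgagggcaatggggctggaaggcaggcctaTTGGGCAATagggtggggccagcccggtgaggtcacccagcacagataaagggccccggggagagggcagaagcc
The Camp window, chr9:109849457-109849706 on the minus strand, held neither motif. The Ngp window, chr9:110419558-110419807 on the plus strand, held 1 C/EBP match, 139 to 131 bases before the start. The Ltf window, chr9:111019042-111019291 on the plus strand, held 1 C/EBP match, 75 to 67 bases before the start, and 1 PU.1 match, 157 to 152 bases before it. Read on the strand of the motif, both C/EBP matches are TTGGGCAAT. Of 32851 promoter windows of this length, 10.2% held the C/EBP motif and 23.3% the PU.1 motif, so the matches are a description of these windows.

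The second question was how lung neutrophils differed between pnd7 and pnd60. The stefins, a family of cysteine protease inhibitors that is expanded in the mouse, differed widely between the ages. Summed over the 10 stefin genes, a list put together after the values were seen, they held 9.27% of neutrophil counts in air pnd7 and 9.80% in hyperoxia pnd7, against 0.175% in air pnd60 and 0.166% in hyperoxia pnd60. The summed level was lower at pnd60 by a log2 ratio of -5.73 in air (-5.92 to -5.54) and -5.89 after hyperoxia (-6.06 to -5.72). The stefin sum in all other barcodes was 12.0, 5.64, 1.31 and 0.894 CPM.

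The difference held barcode by barcode. All 15 neutrophils of air pnd7 carried stefin counts, from 82 to 1471 with a median of 327, which was 1.51 to 17.5% of a barcode's counts with a median of 10.5%. All 13 of hyperoxia pnd7 carried 89 to 1842 counts with a median of 255, or 2.94 to 16.9% with a median of 8.50%. At pnd60 stefins were counted in 39 of 97 neutrophils in air, at most 27 counts or 2.48%, and in 47 of 126 after hyperoxia, at most 29 counts or 1.52%. The counts of the ages did not overlap, and the shares overlapped only where 2 air pnd7 barcodes (1.51% and 2.09%) met the highest of pnd60. Granule-rich barcodes followed their age: those of pnd7 held 5.55 to 17.5% of stefins, while those of pnd60 held 0, 0 and 2 counts in air and 0 after hyperoxia.

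**Figure D3:**
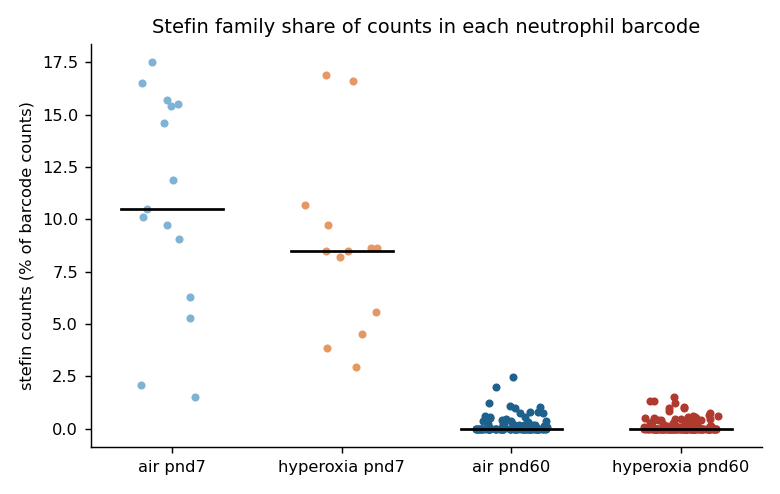
Stefin counts as a percent of the counts of each neutrophil barcode, by library; points are barcodes and black lines are medians (10.5%, 8.50%, 0% and 0%). The pnd7 barcodes reach 17.5%, and no pnd60 barcode exceeds 2.48%.

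The family members did not share the difference equally. Cstdc5 was at 28032 CPM in air pnd7 and 34502 CPM in hyperoxia pnd7, and it held 1 count in each pnd60 library. Stfa1 was at 32702 and 32797 CPM at pnd7 and at 149 and 50.4 CPM at pnd60. Stfa3 held 259 and 225 counts at pnd7 and none at pnd60, at least 157-fold lower in air and at least 211-fold lower after hyperoxia against a floor of 3 counts per library. Stfa2l1 and Cstdc4 held most of the stefin counts that were left: Stfa2l1 was at 6543 and 6676 CPM at pnd7 and 1027 and 801 CPM at pnd60, and Cstdc4 at 12815 and 13053 against 528 and 801 CPM. The 10 genes lie within 335 kb on chromosome 16, are related copies, and how their reads were split between near-identical members is uncertain. Csta1 was at 0 in every barcode of the 4 libraries.

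The promoter of Stfa1 (250 bases before the RefSeq start, chr16:36276898-36277147, plus strand, GRCm38.p6) is shown because it was the stefin with the most counts in air pnd7.
Stfa1: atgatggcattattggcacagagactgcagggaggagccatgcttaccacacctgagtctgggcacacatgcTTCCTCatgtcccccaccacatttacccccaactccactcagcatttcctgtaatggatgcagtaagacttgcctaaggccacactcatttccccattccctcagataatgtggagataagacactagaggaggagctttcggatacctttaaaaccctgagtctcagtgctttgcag
It held no C/EBP match and 1 PU.1 match, 178 to 173 bases before the start, in capitals.

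Over all genes, the median gene was higher at pnd60, by a log2 ratio of 0.49 in air over 601 genes with at least 50 counts and of 0.59 after hyperoxia over 723 genes. A gene is called here where it differed at least 2-fold. In air 180 genes were called higher (30.0%) and 44 lower (7.32%), or 224 in all (37.3%), and after hyperoxia 253 higher (35.0%) and 66 lower (9.13%), 319 in all (44.1%). Scaled instead so that the median gene did not differ, the calls were 106 higher and 106 lower in air and 128 higher and 146 lower after hyperoxia.

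Receptors and surface proteins of mature neutrophils were called higher at pnd60 more often than lower. Of 20 listed identity receptors 11 could be compared, and 7 were called higher and none lower in each exposure, with a median log2 ratio of 1.22 in air and 1.54 after hyperoxia against the 0.49 and 0.59 of all genes. Their sum had a ratio of 1.20 and 1.18 in neutrophils and of 1.13 and 1.39 in all other barcodes. Csf3r was at 977 CPM (72 counts) in air pnd7, 647 CPM (41 counts) in hyperoxia pnd7, 4004 CPM in air pnd60 and 3928 CPM in hyperoxia pnd60, a log2 ratio of 2.03 (1.68 to 2.41) and 2.60 (2.15 to 3.09). Cxcr2 was at 638, 458, 1355 and 1440 CPM, and its log2 ratio in air was 1.09 (0.62 to 1.58), or 0.69 without the deepest barcodes. Clec4d had ratios of 1.99 and 1.69. Cxcr4, the receptor that holds neutrophils in the marrow and marks aged cells, was at 176, 426, 1273 and 1076 CPM, with ratios of 2.85 and 1.34. In B cell barcodes Cxcr4 was counted in 9.56%, 18.9%, 55.8% and 38.2%, so it was more widespread at pnd60 there too. Among neutrophils that were not granule-rich, and without the deepest barcodes, Csf3r was at 2436, 1298, 4296 and 4065 CPM. Cxcr2 was then at 1134, 865, 1448 and 1462 CPM. In air neither of these genes then differed 2-fold between the ages, and after hyperoxia only Csf3r did.

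These counts of few genes stand beside the 30.0% and 35.0% of all genes called higher. Of 18 cytokine and chemokine genes 5 could be compared, and 3 were called higher at pnd60 in each exposure (Il1b and Il1rn, the interleukin 1 receptor antagonist, in both, Cxcl2 in air and Ccl6 after hyperoxia) and none lower. Of 10 handling and stress genes 2 of 3 compared were called higher in air (Fos and Dusp1) and 3 of 5 after hyperoxia (Egr1 in addition). Il1b was at 1453 CPM in air pnd7 (1190 to 1755), 2683 CPM in hyperoxia pnd7 (2295 to 3118), 10778 CPM in air pnd60 (10230 to 11348) and 10995 CPM in hyperoxia pnd60 (10513 to 11492). Its log2 ratio between ages was 2.89 in air and 2.03 after hyperoxia. Among neutrophils that were not granule-rich Il1b was at 1936, 6129, 11649 and 11223 CPM, and the value of air pnd7 was 3570 CPM without its deepest barcode, so that the gap to the other libraries was smaller. Dusp1, a phosphatase that ends MAP kinase signals, was at 950, 1057, 9364 and 6304 CPM, with ratios of 3.30 and 2.58, and Junb and Fos, subunits of AP-1, had ratios of 2.61 and 1.78 and of 1.98 and 2.11. Ptgs2 (cyclooxygenase 2) held 5 and 4 counts at pnd7 and 113 and 216 at pnd60, and the survival genes Mcl1 and Pim1 had ratios of 1.53 and 1.43 and of 1.44 and 1.81. The part of cell handling in the immediate early genes was not tested. In all other barcodes Dusp1 had ratios of 1.78 and 1.10 and Fos of 0.25 and 0.10. The survival and cell death list summed to ratios of 1.17 and 1.41 in neutrophils and of 0.595 and 0.64 in the other barcodes. For the aged or activated neutrophil list, which holds Ptgs2, these were 1.78 and 1.24 in neutrophils and 0.91 and 0.826 in the others.

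More specific granule genes were called lower than higher at pnd60. Of 14 specific granule genes 10 could be compared: 5 were called lower in air (Camp, Ngp, Anxa1, Lyz2 and Cybb), 7 after hyperoxia (Ltf and Lcn2 in addition), and 1 higher in each (Cnn2, a calponin), beside 7.32% and 9.13% of all genes called lower, with a median of -1.08 in air and -2.53 after hyperoxia. Cybb was at 1303, 1231, 424 and 151 CPM. Without the granule-rich barcodes the median in air was 0.15. Most pnd7 hyperoxia counts of the 7 genes called lower were in 3 granule-rich barcodes. In the other neutrophils after hyperoxia, Lcn2 was higher at pnd60, at 72.1 CPM (2 counts) at pnd7 and 686 CPM (120 counts) at pnd60. Cybb was there at 216 and 126 CPM and Anxa1 at 613 and 463 CPM, both lower by less than 2-fold. Thbs1, encoding the matrix protein thrombospondin 1, was at 1385, 1626, 141 and 140 CPM, with ratios of -3.29 (-4.08 to -2.58) and -3.54 (-4.23 to -2.89). The tertiary granule list includes stefins. Of its 11 genes compared 4 were called lower in each exposure: the stefins Stfa1, Stfa2 and Stfa2l1, described above, and Wfdc21. In each exposure 2 were called higher (Adam8 and Wfdc17). Mmp9 was at 1276, 1452, 2181 and 2118 CPM, ratios of 0.77 and 0.55 that lie about the median of all genes, and Mmp8 was at 1127, 758, 603 and 510 CPM.

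**Figure D4:**
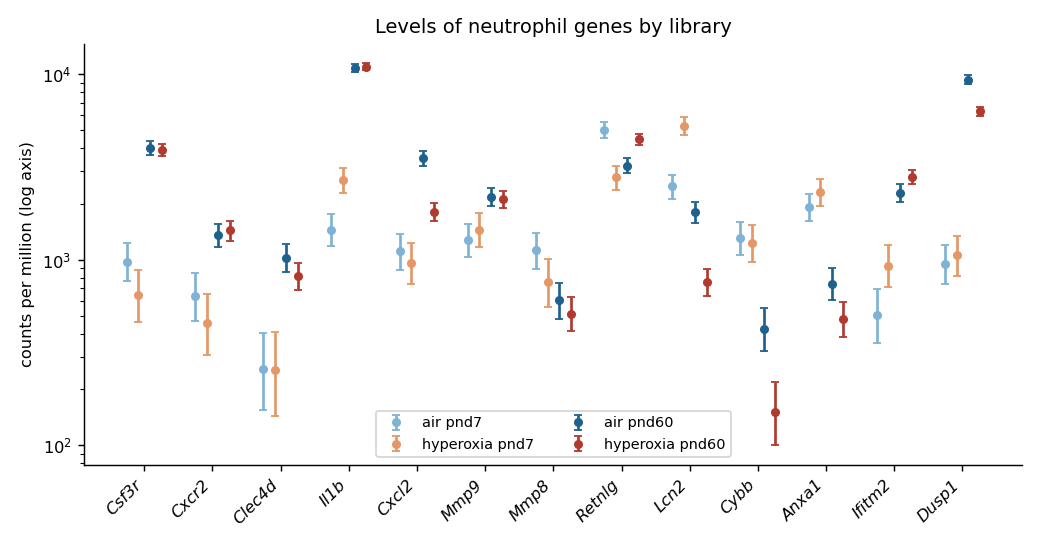
Levels of 13 neutrophil genes in the 4 unsorted libraries, in CPM on a log axis; points are library values and lines are exact 95% Poisson intervals for counting error. Csf3r, Il1b, Ifitm2 and Dusp1 lie higher at pnd60 (Il1b near 10778 and 10995 CPM), while Anxa1 and Cybb lie lower.

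Some RNA of other lung cells also differed with age in these barcodes. Scgb1a1, the club cell secretoglobin, was at 13.6, 31.6, 506 and 852 CPM in neutrophils and at 5640, 3922, 10439 and 18473 CPM in all other barcodes. Cd74, the invariant chain of antigen presentation, was at 27.1, 78.9, 767 and 913 CPM but was counted in only 9 of 97 and 21 of 126 pnd60 neutrophils. Hemoglobin made up 0.130%, 0.144%, 0.0216% and 0.00392% of neutrophil counts. The part of free RNA in the age differences was not tested.

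The third question was how neutrophils differed between hyperoxia and air at the same age. At pnd7, 308 genes had at least 50 counts over the libraries, 11 (3.57%) were called higher and 23 (7.47%) lower after hyperoxia, and the median log2 ratio was 0.00. The balance was not stable: there were 40 higher and 9 lower among neutrophils with calprotectin at 5% or more of counts, and 7 higher and 8 lower by mean CPM per barcode. Of these 34 called genes (11%), 7 remained past 2-fold on the same side without the deepest barcode of each library. Cell cycle genes were an example: their sum was 3272 CPM in air and 521 CPM after hyperoxia, a log2 ratio of -2.65, and 0.91 without the deepest barcodes, since 226 of the 241 counts in air were in 1 barcode. The lysosomal protease gene Ctsd had a ratio of -2.30 and Ccl6 of -1.34, and without the deepest barcodes they had 0.66 and 0.43. Cst3, encoding cystatin C, had 1.58 and then 0.15, and Ifitm3, an interferon-induced membrane protein, 1.26 and then 0.16.

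Genes with nearly the same ratio without the deepest barcodes were Nfkbia, the NF-κB inhibitor, at 570 CPM (42 counts) in air and 1326 CPM (84 counts) after hyperoxia, a ratio of 1.22 (0.67 to 1.79) and 1.28 without them, Slpi at 1548 and 2888 CPM with 0.90 and 0.84, and Il1b with 0.88 (0.53 to 1.25) and 0.85. The galectin gene Lgals3 was at 1670 and 489 CPM, -1.77 and then -1.02. Camp was at 4928 CPM in air and 13984 CPM after hyperoxia, a ratio of 1.5 (1.33 to 1.68), Ngp at 7113 and 15594 CPM with 1.13, and Lcn2 at 2484 and 5256 CPM with 1.08. Without the deepest barcodes Camp had 1.06, Ngp 0.68 and Lcn2 0.59. Ltf was at 2484 CPM in air and 3662 CPM after hyperoxia, a ratio of 0.56 (0.27 to 0.85), and of -0.20 (-0.52 to 0.12) without the deepest barcodes. Camp was counted in 5 and 3 barcodes, and it had a ratio of -0.38 when each barcode was thinned to 500 counts. Retnlg was at 5023 and 2778 CPM, -0.86 (-1.12 to -0.59), and -1.39 (-1.71 to -1.08) without the deepest barcodes. The stefin sum had a ratio of 0.08 (0.03 to 0.13), and -0.14 without the deepest barcodes, so its direction turned. The identity receptors had a median of 0.05 with 1 of 7 called (Cd177, at 1.30 and then 0.87). The tertiary granule list, which includes stefins, had a median of 0.00 with none of 9 called.

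At pnd60, where more neutrophils were counted, 1020 genes could be compared, 9 (0.882%) were called higher and 14 (1.37%) lower after hyperoxia, or 23 in all (2.25%), and the median log2 ratio was 0.01. Of 10 specific granule genes compared 5 were called lower and none higher, with a median of -0.94 and a sum of -1.15 (-1.27 to -1.03), or -0.50 without the deepest barcodes. Camp was at 1660 CPM (223 counts) in air and 11.2 CPM (2 counts) after hyperoxia, Ngp at 1727 (232 counts) and 89.7 CPM (16 counts), and Ltf at 1437 (193 counts) and 5.60 CPM (1 count). Lcn2 was at 1809 and 757 CPM, a ratio of -1.26, and Cybb at 424 and 151 CPM, -1.49. Of the 648 counts of Camp, Ngp and Ltf in air 647 sat in 3 barcodes, and 1 of these held 185 of the 223 Camp counts. Without the granule-rich barcodes Lcn2 had a ratio of 0.06, and without the deepest barcodes Cybb had -0.48.

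Cxcl2, a chemokine that attracts neutrophils through Cxcr2, was at 3528 CPM in air (3218 to 3860) and 1810 CPM after hyperoxia (1618 to 2019), a log2 ratio of -0.96 (-1.17 to -0.76), just inside 2-fold. It was counted in 57 of 97 and 56 of 126 neutrophils, at most 62 and 45 counts in a barcode, and its ratio in all other barcodes was -0.26. Dusp1 had a ratio of -0.57 (-0.69 to -0.45) in neutrophils and -0.40 in the other barcodes, and the handling and stress list summed to -0.33 (-0.43 to -0.24), with 0 of 5 genes called and a sum in other barcodes of -0.075. Il1b differed by 0.03 (-0.07 to 0.13) and Csf3r by -0.03 (-0.19 to 0.14).

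Few genes were higher after hyperoxia at pnd60. The olfactory receptor gene Olfr1033 was at 179 CPM (24 counts in 18 barcodes) and 499 CPM (89 counts in 43 barcodes), a ratio of 1.48 (0.82 to 2.20), and 0.34 in the other barcodes. Ftl1, the ferritin light chain, was at 528 and 1300 CPM, 1.30 (0.91 to 1.70), and its ratio in the other barcodes was nearly as large at 1.19. Scgb1a1 had 0.75 in neutrophils and 0.82 in the others. Of 18 interferon response genes 6 could be compared and none was called, with a median of 0.28 and a sum of 5560 CPM in air and 7106 CPM after hyperoxia, a ratio of 0.35 (0.22 to 0.49) against 0.10 in the other barcodes. Ifi27l2a, also induced by interferon, was at 454 and 757 CPM with a ratio of 0.74, and Ifitm1 at 1265 and 1855 CPM with 0.55 (0.28 to 0.83).

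**Figure D5:**
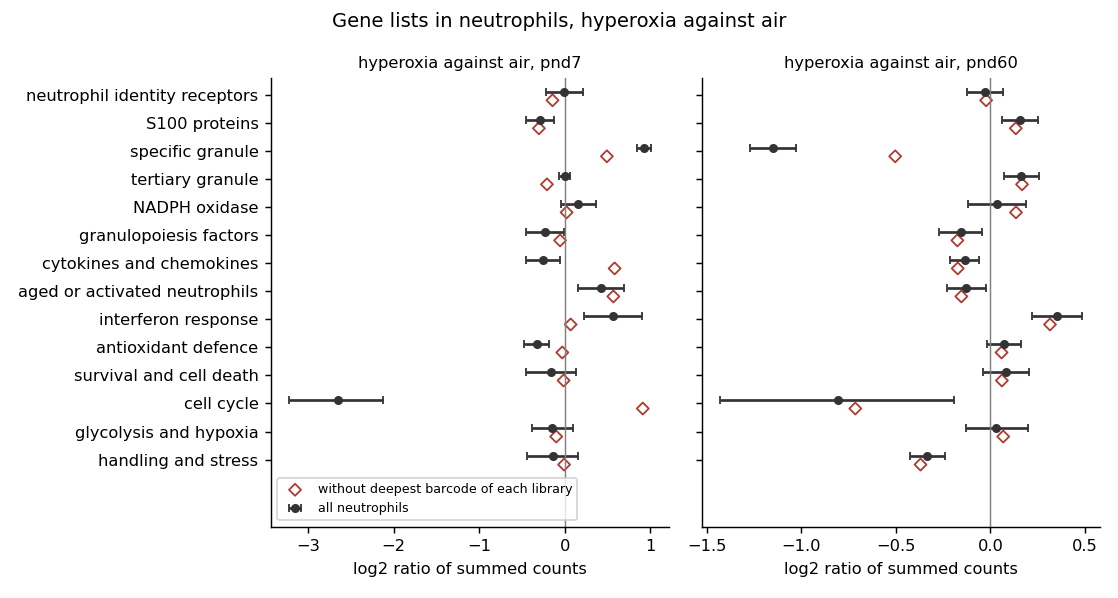
Log2 ratio of summed counts, hyperoxia against air, for 14 gene lists in pnd7 (left) and pnd60 (right) neutrophils; filled points with 95% counting intervals use all neutrophils and open diamonds leave out the deepest barcode of each library. The cell cycle sum at pnd7 moves from -2.65 to 0.91 without the deepest barcodes, and the specific granule sum from 0.92 to 0.49 at pnd7 and from -1.15 to -0.50 at pnd60.

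The counts of called genes in the other lists stand beside 11% of all genes called at pnd7 and 2.25% at pnd60, and nothing particular to a list is read from them. Aged or activated neutrophil genes had 1 of 3 called higher (Nfkbia) and 1 lower (Plaur, the urokinase receptor) at pnd7, with a sum of 0.42 (0.15 to 0.69), and 0 of 9 called at pnd60. Interferon response genes at pnd7 had 1 of 3 called higher (Ifitm3) and 1 lower (Ifitm1), with a sum of 0.56 (0.23 to 0.90) and of 0.07 without the deepest barcodes. The primary granule sum was lower after hyperoxia at pnd7 by a log2 ratio of -1.15 (-2.25 to -0.15), on 31 and 12 counts, and the cell cycle sum at pnd60 by -0.81 (-1.43 to -0.19), on 54 and 41 counts. Of those 54 counts 23 were in 1 barcode, and without the barcode with the most cell cycle counts in each library the levels were 236 CPM in air and 217 CPM after hyperoxia. Cytokine and chemokine genes had 1 of 3 called at pnd7 (Ccl6, lower) and 0 of 6 at pnd60. The antioxidant defence list had 1 of 7 genes called lower at pnd7 and 1 of 8 called higher at pnd60, in both cases Ftl1, with medians of -0.40 and 0.08. Senescence and secreted senescence genes had 1 of 3 called at pnd7 (Plaur, lower) and 0 of 5 at pnd60, with medians of -0.03 and -0.004. NADPH oxidase subunits had 0 of 5 called at pnd7 and 1 of 7 at pnd60 (Cybb, lower), with medians of 0.24 and 0.00. Glycolysis and hypoxia genes had 0 of 4 and 0 of 7 called, survival and cell death genes 0 of 2 and 0 of 4, and granulopoiesis factors 0 of 4 and 0 of 6. Tnf, Cxcl3 and Hspa1b were at 0 in every barcode of the 4 libraries and are not read as absent.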

How the data were processed

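Whole-lung cells were profiled with 10x Genomics 3′ chemistry. The deposited matrices hold raw molecule counts (distinct molecular tags), as the authors made them, for each gene in each barcode. Per the submitters' processing notes the authors used Cell Ranger (version not given), Seurat 3.2.1 and the mm10 build, and the files hold barcodes below the study's own filter. The members, gene lists and comparisons were chosen with earlier results of these data known. The stefin list, the granule-rich limit and the removal of the deepest barcode were chosen after the values were seen.

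The unsorted libraries held 4243, 2664, 5128 and 5632 deposited barcodes with 29873688, 26295355, 15906723 and 18320487 counts (air pnd7, hyperoxia pnd7, air pnd60, hyperoxia pnd60), of which neutrophils held 73761, 63450, 134380 and 178458. Counts were summed over the neutrophils of a library and scaled to CPM without hemoglobin features. Genes with at least 50 counts over a pair of libraries were compared, leaving out hemoglobin and S100a8 and S100a9, and a gene was called at 2-fold or more. Intervals (95%) were exact Poisson for a level, Clopper-Pearson for a share and exact binomial for a ratio; they cover counting error only. A gene without counts in a library was set to 3 counts there. The interval code was tested on simulated data.

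Named genes were members of the fixed lists, the 8 highest and 8 lowest ratios per comparison among genes with at least 100 counts, the 20 genes with the largest ratio to other barcodes (10 CPM added) and the 10 most abundant genes of each library; 1 listed gene is not reported here. Of 335 listed genes 18 were at 0 in every barcode, and 14 of these also have a copy feature; Ahsp, BC100530 and Hist1h2ae were not among the features. Doublets were called with Scrublet (scanpy 1.11.5) and kept: 1, 2, 134 and 180 barcodes, 0, 0, 3 and 6 of them neutrophils. At pnd7 these were 0.0311% and 0.111% of barcodes, too few to count as a working call. Python 3.11.15, numpy 2.4.6, scipy 1.17.1 and pandas 2.3.3 were used. Promoters are from RefSeq GRCm38.p6.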

Additional observations from a re-analysis of the deposited data

Results flagged for a closer look

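In 4 genes the ratio of hyperoxia to air was past 2-fold in opposite directions at pnd7 and pnd60, and the difference between the ages was not tested. The log2 ratio of Camp was 1.5 at pnd7 and -7.21 at pnd60, that of Ngp 1.13 and -4.27, that of Lcn2 1.08 and -1.26, and that of Ftl1 -1.14 and 1.3. Without the deepest barcode of each library the pnd7 ratio was 1.06 for Camp, 0.683 for Ngp, 0.586 for Lcn2 and -0.22 for Ftl1, and the pnd60 ratio was -4.68 for Camp, -3.00 for Ngp, -0.917 for Lcn2 and 1.29 for Ftl1. The pnd60 ratios of Camp and Ngp rest on 3 granule-rich air barcodes, of which 1 held 185 of the 223 Camp counts, Lcn2 at pnd60 had 0.0573 without granule-rich barcodes, and Camp at pnd7 had -0.379 with barcodes thinned to 500 counts.

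The C12FDG-sorted library, which entered no comparison, held S100a8 and S100a9 at 76 CPM, above the limit that a count of 0 allows, although none of its 559 barcodes met the rule for neutrophils.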

How the results depend on the processing

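No paired analysis was possible because there was a single library for every condition, so no replicate could be left out either. With S100a8 and S100a9 at 5% or more of counts the pnd60 shares were 1.51% in air and 1.86% after hyperoxia, and under the filter on 700 to 8000 genes 0.705% and 1.22%; the other 32 share values stayed within their intervals. The genes past 2-fold at pnd7, hyperoxia against air (34), were 13 without the deepest barcodes, 57 without granule-rich barcodes (12 higher, 45 lower), 15 by mean CPM per barcode (7 higher, 8 lower), 1 with barcodes thinned to 500 counts, 137 at 20 counts or more, 18 at 100 or more and 1755 without a filter, and 49 (40 higher, 9 lower) with the 5% limit. At pnd60 (23) they were 40 with the gene filter, 6 thinned, 172 at 20 counts, 8 at 100 and 1829 without a filter. Between ages in air (224) they were 111 with the gene filter, 61 thinned, 613 at 20 counts, 117 at 100 and 2388 without a filter. Between ages after hyperoxia (319) they were 209 with the gene filter, 171 without granule-rich barcodes, 72 thinned, 776 at 20 counts, 165 at 100 and 2452 without a filter. The direction turned for Camp at pnd7 when thinned (-0.379), for Ccl6 at pnd7 with the 5% limit (0.155), without the deepest barcodes (0.426) and by mean CPM (0.0984), for Psap at pnd7 with the 5% limit (0.484), for Lcn2 at pnd60 without granule-rich barcodes (0.0573), and for the specific granule median between ages in air without them (0.148). These turns are among the 64 gene ratios and 60 list medians followed across the settings, where 50 counts were kept, and they do not cover every gene compared. At pnd7 without the deepest barcodes Fth1 also turned, from -0.27 (-0.51 to -0.03) to 0.37 (0.05 to 0.69). Ltf went from 0.56 to -0.20 and Rpl41 from -0.48 to 0.17. Without the deepest barcodes Ctsd (0.657), Ptma (0.439) and Cd9 (0.323), lower at pnd7 with all barcodes, had under 50 counts and the other direction. Of 135 list sums 13 changed sign without them; at pnd7, hyperoxia against air, these were cell cycle (0.91), cytokines (0.581), mature core (0.309), stefins (-0.144), alveolar macrophages (0.985) and classical monocytes (-0.59), and between ages in air cell cycle went from -3.02 to 0.389. Apart from what leaving out barcodes, counts or genes itself removes, the cause was not tested. Of the other log2 ratios of genes 679 stayed within counting error and 89 moved beyond it, and of list medians 651 and 86. The pnd7 values rest on 15 and 13 barcodes.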
